A study of Mus musculus with 20 samples.

Results

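Macrophages sorted from the spleens of 24-month-old male mice were compared between animals that lack Nlrp3 (Nlrp3-/-, called null here) and wild-type animals, with 3 null and 4 wild-type libraries of the 20 in the series. The 7 libraries were taken by their labels for tissue, age and genotype. The labels call the cells macrophages, and the series' design text says that they were sorted by FACS on the surface proteins F4/80 and CD11b. The other 13 libraries are 2 of spleen from 3-month wild-type males, and 11 of visceral adipose tissue (VAT) from 3-month wild-type (3), 24-month wild-type (4) and 24-month Nlrp3-/- males (4). The labels name no strain, allele, colony or batch, and no animal for any library. P-values therefore measure only the spread between these samples, which may be technical, and whether colony or sequencing run went with genotype was not tested.

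NLRP3 is a cytosolic sensor of cell damage and infection. Once triggered it gathers the adaptor ASC (Pycard) and caspase-1 into an inflammasome, which cuts the precursors of IL-1β and IL-18 into their secreted forms and opens pores of gasdermin D in the membrane. Its transcription is itself primed by Toll-like receptors and NF-κB. In the spleen, macrophages of the red pulp clear old red blood cells and recycle their iron, and the organ also holds B cells, T cells, monocytes and neutrophils.

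Values are normalised read counts, that is, gene read counts divided by a size factor per library. Each wild-type library held 27.2 to 32.8 M whole reads (M, mega) and each null library 24.1 to 31.4 M, and a count of 0 stands as 1 in these tables. Spearman correlations across genes between pairs of the 7 libraries were 0.956 to 0.968. On the first principal component, with 20.3% of the variance, null replicate 3 lay at 10.45 and the other null libraries at -37.45 and -52.41, while wild-type libraries lay from -30.53 to 59.26. The groups therefore overlapped on this component. On the second, with 19.4% of the variance, wild-type libraries lay from -6.06 to 74.94 and null libraries from -62.04 to -10.91. The groups did not overlap there, though each spread widely.

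Nlrp3 lies on the forward strand of chromosome 11 in mm10. RefSeq gives it 2 starts, and the 250 bases before the first are shown because this gene alone passed the test below. Capitals mark the stretch that matches a loose core of an NF-κB site (GGG, any 5 bases, then CC) on both strands. This pattern, searched on both strands, occurs in 45.8% of 32851 mouse promoter windows of the same length, and the match is a description of letters only. The window before the other start, chr11:59542436-59542685, holds no match.
Nlrp3, chr11:59541319-59541568, forward strand, RefSeq, GRCm38.p6: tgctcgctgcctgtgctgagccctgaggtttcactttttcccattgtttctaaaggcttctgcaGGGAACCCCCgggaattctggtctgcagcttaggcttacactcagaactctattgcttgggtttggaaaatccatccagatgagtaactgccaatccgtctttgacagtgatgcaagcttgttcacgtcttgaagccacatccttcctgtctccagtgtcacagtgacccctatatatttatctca

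Nlrp3 itself followed the genotype labels in all 7 libraries. It stood at 663.1, 455.7, 462.9 and 340.7 normalised counts in the 4 wild-type libraries and at 1, 3.61 and 1 in the 3 null libraries. In whole reads these were 666, 445, 547 and 368 against 0, 3 and 0, so only null replicate 2 held any read of the gene. The wild-type share of reads was 484.6 times the null share, with a 95% counting interval of 165.6 to 2352 that covers counting error only. Nlrp3 fell by 7.47 on the log2 scale (SE 0.57, adjusted p = 1.77e-05 by limma with Benjamini-Hochberg adjustment).

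Beyond Nlrp3, no gene of the spleen libraries passed the threshold between null and wild-type mice. Of 13053 genes tested, 1 was called at an adjusted p under 0.05 (0.00766%), which is Nlrp3, and 0 were higher in the null libraries. At an unadjusted p under 0.05 there were 808 genes (6.19%), with 410 higher (3.14%) and 398 lower (3.05%) in null libraries. The groups did not overlap in 986 genes (7.55%), of which 496 were higher (3.8%) and 490 lower (3.75%) in the null libraries. The median log2 difference over all genes was 0.01, and 51.1% lay above 0. By edgeR the count of calls was also 1, and by DESeq2 it was 16 of 12976 genes (0.123%), with 9 higher and 7 lower.

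How closely a difference was estimated depended on the level of the gene. Among 4878 genes with a mean of at least 1000 normalised counts, the median half-width of the 95% interval was 0.39 on the log2 scale, and the whole interval lay within a 2-fold change either way for 4684 of them (96.02%). For the 5669 genes between 100 and 1000 the median half-width was 0.77 and the share was 43.08%. For the 2506 genes under 100 it was 2.54, and 0 had an interval within 2-fold. Changes under 2-fold in genes of low level were thus not detectable here. These intervals hold for 1 gene at a time, and a call after adjustment over 13053 genes asked for more. Larger differences also went uncalled, such as Lcn2 at 1.54 and Slc25a35 at -1.71 (both adjusted p = 0.55 by limma).

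**Figure D1:**
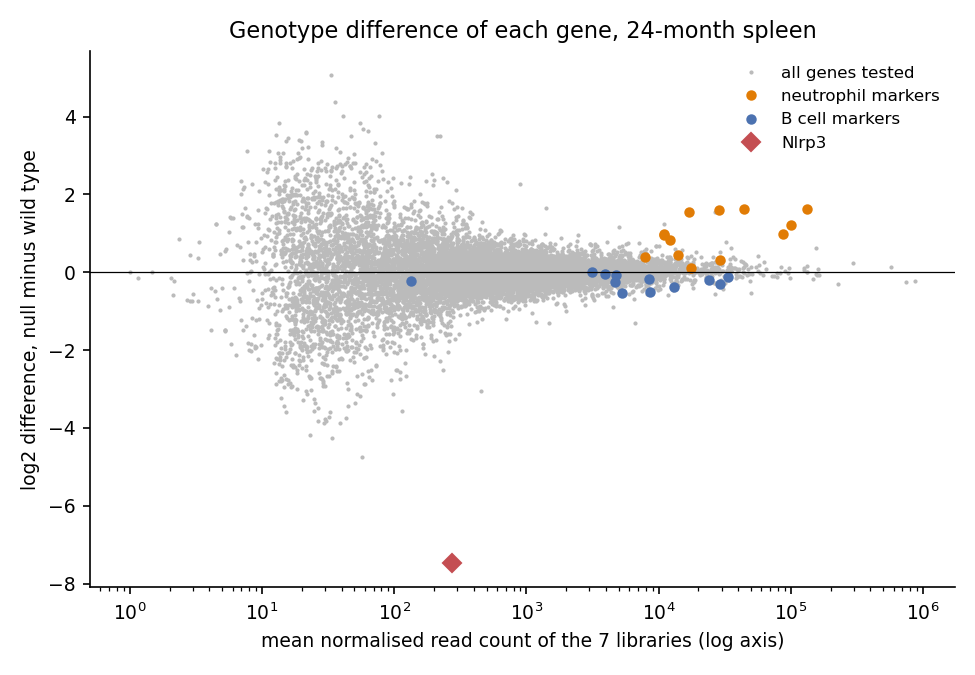
Log2 difference of each gene (null minus wild type, log2 of the normalised count plus 1) against its mean normalised read count over the 7 libraries on a log axis, with neutrophil markers, B cell markers and Nlrp3 marked. Nlrp3 lies at -7.47, apart from every other gene, neutrophil markers lie above 0 and B cell markers at or below 0, and the spread widens toward low counts.

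The other parts of the inflammasome were present in both groups, and none of the 25 genes listed for it was called. The list had 0 calls and 0 genes at an unadjusted p under 0.05, a median log2 difference of 0.03, and 95% intervals within 2-fold for 16 of its 25 genes. The adaptor Pycard stood at 4139, 3613, 3883 and 3164 in wild-type and at 4251, 3845 and 3896 in null libraries. Caspase-1 (Casp1), the protease that NLRP3 activates, stood at 3302, 2837, 2922 and 2167 against 3050, 2453 and 3802. The ranges overlapped in both genes, and their log2 differences were 0.12 (95% interval -0.20 to 0.44) and 0.14 (-0.32 to 0.60).

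Gasdermin D (Gsdmd), the pore protein, had a mean of 2371 ± 389 (SD, n = 4) in wild-type and 2504 ± 301 (SD, n = 3) in null libraries. For Casp4, the caspase of the noncanonical pathway that senses bacterial lipopolysaccharide, the means were 1198 ± 201 and 1113 ± 256. For Aim2, a sensor of cytosolic DNA with an inflammasome of its own, they were 530 ± 138 and 490 ± 197. None of these sensors and effectors moved by more than its spread between libraries. Nek7, a kinase that binds NLRP3 and is needed for its assembly, was the only listed gene whose groups did not overlap: it stood at 2685, 2831, 3210 and 2982 in wild-type and at 2516, 2492 and 2524 in null libraries. Its log2 difference was -0.22 (95% interval -0.51 to 0.08, adjusted p = 0.85 by limma), so it was not called.

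The transcripts of the cytokines that the inflammasome processes did not differ by more than the spread between libraries. Il1b, which encodes the IL-1β precursor, stood at 14062, 12921, 9193 and 6167 in wild-type and at 15542, 11320 and 9320 in null libraries. Il18 stood at 2966, 2873, 2893 and 1741 against 2783, 2406 and 2569. The ranges overlapped widely, with log2 differences of 0.23 (95% interval -0.28 to 0.74) for Il1b and 0.01 (-0.43 to 0.46) for Il18. The IL-1 receptor antagonist Il1rn, which blocks the response to IL-1, had means of 2973 ± 791 (SD, n = 4) and 2775 ± 698 (SD, n = 3). Cleavage and secretion of these proteins are not seen by RNA sequencing.

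**Figure D2:**
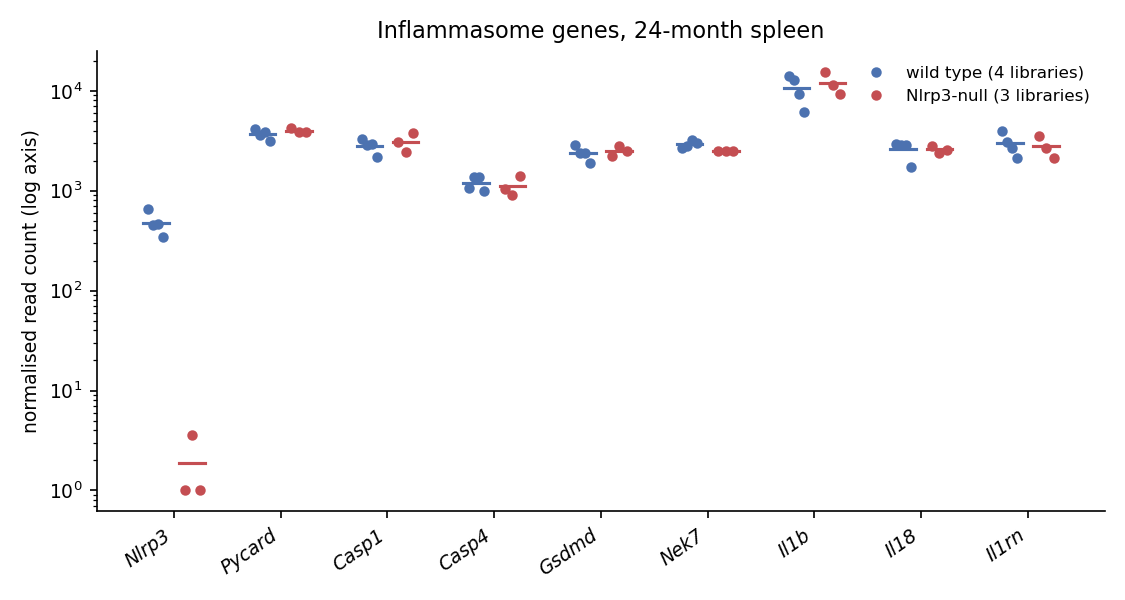
Normalised read counts (log axis) of Nlrp3 and 8 other inflammasome genes in each library, with wild-type libraries in blue, null libraries in red and a bar at each group's mean. Nlrp3 drops from 340.7 or more to 3.61 or less, while the groups overlap in every other gene shown except Nek7.

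Genes that sense and relay IL-1 and microbial signals were not called either. Of the 33 genes of IL-1 receptor and Toll-like receptor signalling, 0 were called, and 5 were higher and 1 lower at an unadjusted p under 0.05, with a median log2 difference of 0.13. Among them, named after their values were seen, Tlr7, an endosomal sensor of RNA, had means of 918 in wild-type and 1293 in null libraries (adjusted p = 0.79 by limma). The kinase Irak4, which acts downstream of both receptor families, had means of 1597 and 2061 (adjusted p = 0.78 by limma). Among 30 genes of NF-κB and its cytokines 0 were called, 1 was higher and 4 were lower at an unadjusted p under 0.05, and the median was -0.09. The lower ones held the subunits Nfkb2 (means of 3726 and 2780) and Relb (3653 and 2440), named after their values were seen. The type I interferon list (30 genes, median 0.01) and the interferon gamma list (24 genes, median 0.11) had 0 calls.

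The title of the series concerns catecholamine breakdown by macrophages, and the genes for it had no calls in the spleen. Catecholamines are the transmitters of sympathetic nerves, and MAOA is an enzyme that degrades them. Maoa was low in these libraries, at 40.8, 1.02, 1 and 7.41 in wild-type and 42.6, 31.3 and 42.6 in null libraries. The log2 difference of 2.68 had a 95% interval of -0.22 to 5.59 (adjusted p = 0.81 by limma), and wild-type replicate 1 lay above null replicate 2.

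Of the 15 tested genes of catecholamine breakdown 0 were called, with a median of 0.18. The growth differentiation factor Gdf3, a ligand of the TGF-β family, stood at 157.3, 74.8, 190.4 and 136.1 in wild-type and at 1, 15.6 and 107.5 in null libraries, where replicate 3 lay within the wild-type range. Its log2 difference was -3.12 (95% interval -5.31 to -0.92, adjusted p = 0.78 by limma). It was -1.65 without null replicate 1 and -4.53 without null replicate 3, and -1.76 by edgeR. Gdf15, a stress-induced member of the same family, stood at 61.7, 32.8, 28.8 and 22.2 against 110.5, 233.5 and 1. Its null values lay both above and below the wild-type range, with a log2 difference of 0.10 (95% interval -2.62 to 2.83) that was -1.22 without null replicate 2 and 2.22 without null replicate 3.

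Markers of macrophages were looked at in each library. All 15 pan-macrophage markers were read in both groups, and their summed normalised counts were 221690 to 312080 in wild-type and 340800 to 409540 in null libraries. The 13 neutrophil markers described below summed to 214580 to 434850 and 408130 to 1171300. Such sums depend on the genes listed and are not shares of cells. Lyz2, which granulocytes also express, made up a large part of the pan-macrophage sums, and its values are given below. Of these 15 genes 12 had a higher mean in null libraries (for lists, the mean of log2 values), 4 at an unadjusted p under 0.05 and 0 called, with a median log2 difference of 0.30. The median was 0.14 without null replicate 2. The F4/80 gene Adgre1, on whose protein the cells were sorted, stood at 9578, 8604, 8765 and 9641 in wild-type and at 11048, 17590 and 7454 in null libraries, and null replicate 2 was highest and replicate 3 lowest of all. The CD11b gene Itgam stood at 4945, 5906, 3966 and 4359 against 7363, 7901 and 4900, with a log2 difference of 0.47 (adjusted p = 0.78 by limma). Lyz2, the lysozyme of macrophages and granulocytes, named after its values were seen, stood at 131000, 122540, 143740 and 103630 against 200750, 197080 and 180700. It did not pass in limma (log2 difference 0.63, adjusted p = 0.65) but did in DESeq2 (adjusted p = 0.00657).

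Genes of red pulp macrophages were read in every library, and none was called. Spic, the transcription factor that these cells depend on, stood at 10560, 10512, 8693 and 8014 in wild-type and at 10023, 8810 and 8261 in null libraries, a log2 difference of -0.06 (95% interval -0.40 to 0.28). Haem oxygenase 1 (Hmox1), which opens the haem ring, had means of 14418 ± 4083 (SD, n = 4) and 14914 ± 6057 (SD, n = 3). Cd163, the receptor for haemoglobin bound to haptoglobin, had means of 2135 ± 956 and 1972 ± 408. For Vcam1, an adhesion molecule of red pulp macrophages, all null libraries (38403, 63975 and 32711) lay above all wild-type libraries (26008, 32383, 29371 and 25660). Its log2 difference was 0.61 (95% interval 0.16 to 1.07, adjusted p = 0.78 by limma), and 0.33 without null replicate 2. Of 18 red pulp macrophage markers 0 were called, with a median of 0.07, and of 20 iron and haem genes 0 were called, with a median of 0.05.

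The libraries also held abundant transcripts of other cells. Per kilobase of exon, the B cell receptor chain Cd79a stood at 21798 normalised counts in wild-type and 17853 in null libraries, and S100a8, a calcium-binding protein of neutrophils and monocytes, at 129090 and 312390. Adgre1 stood at 2825 and 3716 on the same scale. In bulk libraries such as these, fewer cells of a type and less RNA per cell cannot be told apart.

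Among all 46 lists, genes of neutrophils had the highest median. All 13 tested neutrophil markers had a higher mean in the null libraries, 8 at an unadjusted p under 0.05, 3 with groups that did not overlap and 0 called, and the median log2 difference was 0.97. Over all genes tested, 3.14% were higher at an unadjusted p under 0.05 and 3.8% were higher without overlap. S100a8 stood at 84104, 52927, 44984 and 68942 in wild-type and at 148250, 221600 and 85620 in null libraries. Lipocalin 2 (Lcn2), an iron-withholding protein of neutrophil granules, stood at 11617, 6916, 5632 and 12931 against 24914, 42060 and 15825. In both genes null replicate 2 was highest, and null replicate 3 was the lowest null library. It lay above the highest wild-type library in both, only just so in S100a8. The log2 differences were 1.21 (95% interval 0.62 to 1.81, adjusted p = 0.57 by limma) for S100a8 and 1.54 (0.86 to 2.23, adjusted p = 0.55) for Lcn2.

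Other neutrophil genes, named after their values were seen, differed in size of difference. In Camp and Ltf, both of granules, null replicate 2 was again the highest library. Camp, an antimicrobial peptide, stood at 21279, 8806, 8659 and 20557 in wild-type and at 41375, 77236 and 21704 in null libraries. Lactoferrin (Ltf) stood at 27114, 12766, 10933 and 45440 against 53716, 123330 and 38167, so that the groups overlapped. Csf3r, the receptor that neutrophils need for G-CSF, had means of 16911 ± 4789 (SD, n = 4) and 18411 ± 6087 (SD, n = 3) and was nearest to no difference among the 13 markers. Chil3, a secreted chitinase-like protein of neutrophils, monocytes and macrophages, belongs to the monocyte list and not to the neutrophil list. It was named as a higher gene of lowest p. Chil3 stood at 18714, 9116, 9388 and 21407 against 39709, 63902 and 24647, a log2 difference of 1.54 (0.87 to 2.22, adjusted p = 0.55 by limma).

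The summed counts of the 13 neutrophil markers were 434850, 250970, 214580 and 414510 in wild-type and 709430, 1171300 and 408130 in null libraries. Null replicate 3 thus lay below wild-type replicates 1 and 4. Without null replicate 2 the median log2 difference was 0.61, and without null replicate 3 it was 1.38. Neutrophils carry CD11b, and little F4/80, on their surface. How many were among the sorted cells, and whether their share differed between groups, was not tested.

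Promoter windows are given for Lcn2 and S100a8, the neutrophil markers of lowest p, whose highest values came in the same null library. Capitals mark a match to TTGCNNAA, the core of a C/EBP site, which is a factor family of granulocyte genes. Searched on both strands, this pattern occurs in 9.56% of 32851 mouse promoter windows of 250 bases. It was found once in the Lcn2 window, and its letters were not in the S100a8 window or in that of Chil3.
Lcn2, chr2:32387740-32387989, reverse strand, RefSeq, GRCm38.p6: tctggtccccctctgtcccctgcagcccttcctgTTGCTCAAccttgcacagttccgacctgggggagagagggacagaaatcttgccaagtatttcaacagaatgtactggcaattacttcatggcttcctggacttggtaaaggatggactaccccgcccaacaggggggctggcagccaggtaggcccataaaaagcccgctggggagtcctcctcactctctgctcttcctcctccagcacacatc
S100a8, chr3:90668821-90669070, forward strand, RefSeq, GRCm38.p6: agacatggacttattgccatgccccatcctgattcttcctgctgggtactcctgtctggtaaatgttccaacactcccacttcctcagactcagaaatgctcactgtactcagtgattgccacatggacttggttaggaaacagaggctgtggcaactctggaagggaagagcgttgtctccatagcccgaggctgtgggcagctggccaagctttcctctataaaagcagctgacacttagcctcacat

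**Figure D3:**
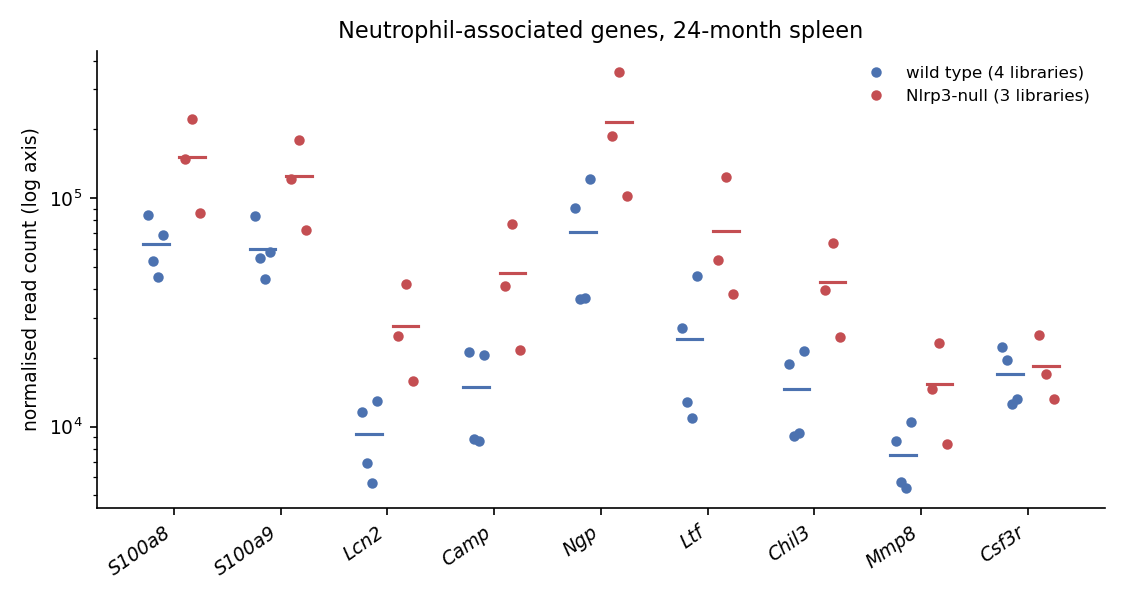
Normalised read counts (log axis) of 9 genes in each library, with wild-type libraries in blue, null libraries in red and a bar at each group's mean. Chil3 is of the monocyte list, and the others are neutrophil markers. Null replicate 2 is the highest library in each gene but Csf3r, and null replicate 3 lies within the wild-type range or above it.

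Markers of other cells of the spleen were set beside these. Of 17 erythroid markers 16 had a higher mean in null libraries, 6 at an unadjusted p under 0.05 and 0 called, with a median of 0.65. The β-globin gene Hbb-bt stood at 3231, 1163, 2158 and 2970 in wild-type and at 5800, 3893 and 2162 in null libraries, so the ranges overlapped. Its values were identical to those of Hbb-b2, and reads of such near-identical globin copies may have been split or shared, so these genes are uncertain. The erythroid sums were 68962, 30624, 36314 and 60667 in wild-type and 99171, 75773 and 46247 in null libraries. Without null replicate 1 the median was 0.38, and without wild-type replicate 2 it was 0.40.

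B cell markers lay the other way, all 12 with a lower mean in null libraries, 1 at an unadjusted p under 0.05 and 0 called, with a median of -0.22. Ms4a1, which encodes CD20, stood at 17491, 22718, 28187 and 34780 in wild-type and at 17292, 19630 and 29753 in null libraries. Cd79a stood at 24487, 29260, 33751 and 39542 against 20866, 22756 and 34415. Null replicate 3 was lower only than wild-type replicate 4 in both genes, and the ranges overlapped. Without wild-type replicate 4 the median was -0.05, without null replicate 1 it was -0.08, and without wild-type replicate 3 it was -0.14. It was -0.36 without wild-type replicate 1 and -0.45 without null replicate 3. Of the 13 MHC class II genes, which B cells, dendritic cells and macrophages share, 11 had a lower mean and 0 were called, with a median of -0.25.

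T cell markers had no common direction. Cd3e, a chain of the T cell receptor complex, stood at 750.7, 744.5, 504.4 and 475 in wild-type and at 729.2, 410.5 and 2136 in null libraries. Null replicate 3 was the highest of the 7 libraries, also for the sum over 18 T cell markers, which was 29331 there and 14235 to 17288 in the others. The median of this list was 0.15, and -0.22 without null replicate 3, and 0 of 18 genes were called. Of 12 megakaryocyte and platelet markers 11 had a lower mean in null libraries, 2 at an unadjusted p under 0.05, with a median of -0.51, which was -0.25 without null replicate 2. Monocyte markers had a higher mean in 13 of 14 genes, 3 at an unadjusted p under 0.05, with a median of 0.28. Their sums were 85095 to 102700 in wild-type and 129030 to 156410 in null libraries, with Chil3 among the 14 genes.

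**Figure D4:**
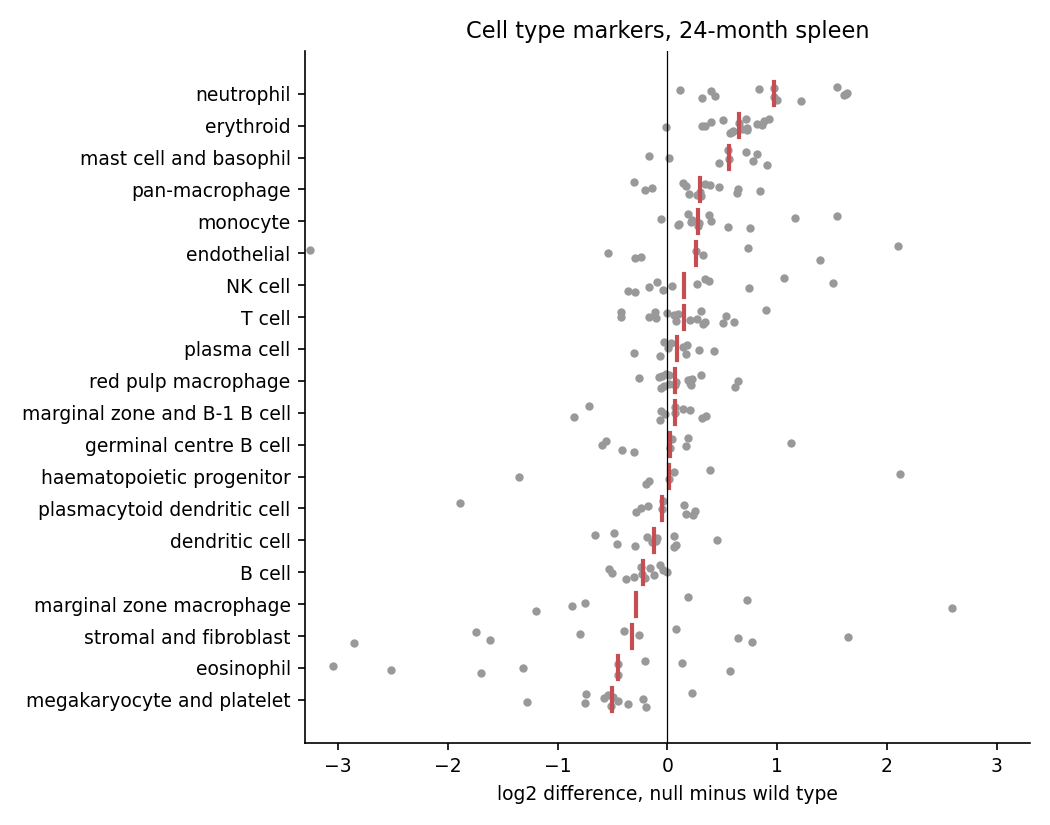
Log2 difference (null minus wild type) of each tested marker gene as a grey point, for 20 lists of cell type markers ordered by their median, which is drawn in red. The medians run from 0.97 for neutrophils to -0.51 for megakaryocytes and platelets, with 0 of the genes called.

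Over the 46 lists together, 728 genes were tested and 0 were called, with Nlrp3 left out of the lists. The medians of 42 lists lay within 0.5 of 0 on the log2 scale. For the counts of each list, the shares over all genes tested were 3.14% higher and 3.05% lower at an unadjusted p under 0.05. The share without overlap was 7.55%. Glycolysis genes had a higher mean in 16 of 20, with a median of 0.15, and genes of the lysosome in 22 of 27, with a median of 0.20. Genes of lipid-associated macrophages had a higher mean in 15 of 18, with a median of 0.29. When single libraries were left out these 3 medians ranged from 0.10 to 0.23, 0.11 to 0.23 and 0.15 to 0.38. Of the last list Trem2, a lipid receptor of such cells named after its values were seen, stood at 107.5, 44, 46.5 and 69.4 in wild-type and at 351.5, 334.6 and 141.4 in null libraries (log2 difference 2.01, adjusted p = 0.65 by limma). Its groups did not overlap, but it was not called.

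The genes that came nearest to the threshold after Nlrp3 are given as values, since none passed it. The higher ones of lowest p were Cap1, Chil3, Lcn2, Serinc3, Emb and S100a8, and the lower ones Adss, Gpr33, Slc25a35, Nsmce4a, Dtx1 and Zfp605, all with adjusted p of 0.55 to 0.57 by limma. Cap1, which helps to turn over actin filaments, stood at 4177, 4475, 4056 and 5242 in wild-type and at 6207, 8361 and 8256 in null libraries. Its log2 difference was 0.76 (95% interval 0.44 to 1.07), and it passed in DESeq2 (adjusted p = 0.0074). Serinc3, a membrane protein, stood at 3993, 4511, 4164 and 4178 against 6300, 6430 and 7375, a log2 difference of 0.67 that passed in DESeq2 (adjusted p = 0.0224). Emb (embigin), a partner of monocarboxylate transporters, had means of 4477 ± 471 (SD, n = 4) and 6687 ± 378 (SD, n = 3) and passed in DESeq2 (adjusted p = 0.0213).

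Adss, an enzyme of adenine nucleotide synthesis, stood at 1842, 2161, 2194 and 2088 in wild-type and at 1252, 1080 and 1246 in null libraries, a log2 difference of -0.80 (95% interval -1.15 to -0.44). Nsmce4a, a subunit of the SMC5-SMC6 complex of DNA repair, had means of 1419 ± 384 (SD, n = 4) and 672 ± 56.2 (SD, n = 3). Dtx1, a ubiquitin ligase of Notch signalling that marginal zone B cells express, stood at 1764, 2453, 2682 and 2732 against 1113, 1278 and 1585. All 3 genes had no overlap between groups, and all 3 passed in DESeq2 (adjusted p of 0.0171, 0.0224 and 0.036).

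Gpr33 and Zfp605 were near the floor in null libraries. Gpr33, a chemoattractant-type receptor, stood at 160.3, 101.4, 108.3 and 24.1 in wild-type and at 1, 6.02 and 1 in null libraries. Zfp605, a zinc finger protein, stood at 22.9, 51.2, 45.7 and 112 against 3.61, 1 and 1. Their fitted log2 differences of -4.75 and -4.26 depend on the pseudocount and are no bounds. Both passed in DESeq2 (adjusted p of 0.00906 and 0.0213). The remaining DESeq2 calls were Wfdc21, Itgb2l, Abcc9, Aplnr and 1810009J06Rik, higher in null libraries, and Slc25a35, lower. Of these, named after their values were seen, Abcc9, a subunit of potassium channels, stood at 1 to 2.05 in wild-type and at 39, 339.4 and 1.94 in null libraries. Its call thus came with a wide spread among null libraries.

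The neighbours of Nlrp3 on chromosome 11 were looked at because a null allele can carry flanking sequence of the strain it was made in. Within 5 megabases (Mb), 104 genes were tested and 0 were called, 5 were at an unadjusted p under 0.05 (4.808%) and 9 had no overlap between groups (8.654%). Over all genes with a position these shares were 6.196% and 7.564%, so the neighbours were near the background. Within 10 Mb, 191 genes gave 0 calls and 11 at an unadjusted p under 0.05 (5.759%). Rnf187, a ubiquitin ligase that lies 609.3 kilobases before Nlrp3, was named after its values were seen. It had means of 3472 in wild-type and 1877 in null libraries (adjusted p = 0.67 by limma), and the groups overlapped. In VAT its means were 1661 in wild-type and 2273 in null libraries. Slc25a35, a mitochondrial carrier protein 9427 kilobases after Nlrp3, stood at 399.2, 453.7, 430.7 and 370.4 in wild-type and at 141.3, 107.1 and 129.8 in null libraries. Its log2 difference was -1.71 (95% interval -2.52 to -0.90). In VAT the means of Slc25a35 were 106 in wild-type and 131 in null libraries.

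**Figure D5:**
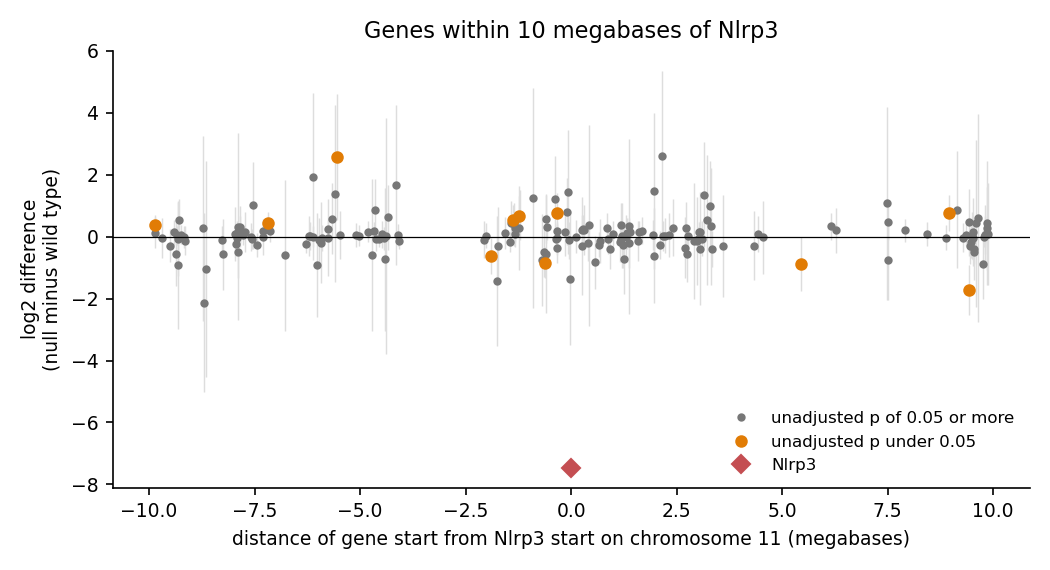
Log2 difference (null minus wild type) of genes on chromosome 11 against the distance of their start from that of Nlrp3 in megabases, with 95% intervals of the neighbours as grey lines. Nlrp3 lies at -7.47, and its neighbours scatter around 0, with 11 at an unadjusted p under 0.05 (orange).

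Was the genotype difference in spleen unlike that in VAT? The 2 comparisons share no library. With both tissues joined on whole reads, 0 of 12150 genes (0%) were called for tissue by genotype, and 977 (8.04%) were at an unadjusted p under 0.05. By edgeR there was 1 call, Lyz2, and by DESeq2 there were 62. In this joined fit 1 gene was called in VAT (0.00823%), which is Nlrp3, with 635 at an unadjusted p under 0.05 (5.23%) and 50.1% of differences above 0, and 5 were called in spleen (0.0412%): Nlrp3, Ak1, Ccl7, Nynrin and Osbpl1a. The 4 besides Nlrp3 were not called in the spleen table alone. Across 12149 genes, 46.37% differed in the same direction in both tissues. Genes are not independent replicates, and the correlation of the 2 differences across genes was -0.03.

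Values in VAT of some genes above follow, on the scale of each tissue's own table. S100a8 had means of 169 in wild-type and 493 in null VAT libraries, and Lcn2 of 33.8 and 91.4. Their tissue by genotype differences were -0.44 (adjusted p = 0.88 by limma) and 0.24 (adjusted p = 0.96). Both genes thus had a higher mean in null libraries of both tissues. Of the neutrophil list, 8 genes were in the joined fit, with median genotype differences of 0.71 in spleen and 1.10 in VAT. In VAT 7 of the 8 were higher, and 0 were called there or for tissue by genotype. The summed counts of the neutrophil markers in VAT overlapped between groups. They were 5442 to 16961 in wild-type libraries (median 15827) and 8892 to 19320 in null libraries (median 16529). For Lyz2 the means in VAT were 431520 and 323270, the other way from spleen, with a tissue by genotype difference of 1.07 (adjusted p = 0.18 by limma). This difference did not pass in limma but did in edgeR (1.05, adjusted p = 0.0366) and DESeq2 (1.06, adjusted p = 2.94e-07).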

How the data were processed

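RNA of sorted spleen macrophages was sequenced from poly-A, strand-specific libraries, per the labels' protocols. CASAVA 1.8.2, TopHat, Partek and DESeq2 and the mm10 genome are named, without roles, per the submitters' processing notes. How reads were counted, on which strand and which genes were removed is not given in the sources used here. The deposited signal per gene and library behaves as a gene read count divided by the library's size factor: at least 99.8% of values in each spleen library were whole multiples of 1 step within 0.05 read. Dividing by the step gave whole reads, and entries at 1, the lowest value, were read as 0.

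Log2 values (pseudocount 1) of the 9 spleen libraries entered 1 limma 3.58.1 model with trend (R 4.3.3), which holds a mean for each group, for 13053 of 13169 genes with a mean of at least 10. Calls needed a Benjamini-Hochberg adjusted p under 0.05, two-sided. The 2 libraries from 3-month mice thus share in the estimate of spread. Tissue by genotype was fitted on 15 libraries from 24-month mice, put on 1 scale from their whole reads with median-of-ratios size factors. edgeR 4.0.16 and DESeq2 1.42.0 were run on recovered reads as alternatives. Exon lengths are from GENCODE M21, and positions from RefSeq GRCm38.p6, which placed 13010 of the genes.

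The members and gene lists were chosen with earlier results of these data known. Genes named are Nlrp3, the 6 higher and 6 lower genes of lowest p, since fewer than 5 were called, and 25 genes fixed whatever their values, some of which are not reported here. Others are said to be named after their values were seen. Lists are described by counts and medians, with no test.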

Additional observations from a re-analysis of the deposited data

Results flagged for a closer look

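Of 57 sets of 4 wild-type spleen values (named genes and summed markers) that were looked at for a single library far from the others, 2 held one, and chance alone flags about 1 group in 20. Il18, the IL-18 precursor, stood at 1741 in wild-type replicate 4, while the other wild-type spleen libraries lay at 2966, 2873 and 2893. Maoa, a monoamine oxidase, stood at 40.82 in wild-type replicate 1, while the others lay at 1.02, 1 and 7.41. Without these libraries neither gene was called.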

How the results depend on the processing

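Nlrp3 was called under all 21 alternatives, with log2 differences of -8.87 to -5.34 and adjusted p of 1.9e-18 to 0.00156. The count of calls was 1 in 17 of the 21, with 0 higher and 1 lower, among them edgeR, another pseudocount or filter, quantile normalisation and leaving out each library (1 to 1 genes called). It was 16 with DESeq2 (9 higher, 7 lower), 3 with limma without trend (1 higher, 2 lower: Nlrp3, Aplnr and Gm4787) and 17 with DESeq2 on the 7 libraries alone (9 higher, 8 lower), an alternative chosen after seeing the data. With the replicate number as a block it was 5 (3 higher, 2 lower): Nlrp3, Lcn2, Chil3, Ltf and Tsc22d1. Deviations of same-numbered libraries correlated at 0.0111, -0.0115 and 0.0479, and those of differently numbered libraries at -0.0571 to 0.0502. No pairing by number was seen, but so few pairs cannot show whether the numbers mark a shared run or batch. The count at an unadjusted p under 0.05 ranged from 532 to 1071. For tissue by genotype the count of calls was 0 in 13 of 20 alternatives, 1 with edgeR and 62 with DESeq2, and 0 to 5 when a library was left out: 1 without wild-type spleen replicate 1 or 2, and 2, 3 and 5 without null spleen replicate 1, 2 and 3. Across 36 named genes besides Nlrp3 and 754 values, 19 values in 11 genes passed the threshold where the main value did not. None of the 36 was called in the main fit, so no call could be lost. The sign of some small differences changed: it matched the main value in 14 of 21 alternatives for Il18 and in 16 of 21 for Gdf15. The cause of these differences was not tested. Precision is limited by 3 and 4 libraries a group and, in genes under 100 normalised counts, by depth.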

Other observations

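Some of the 13053 genes tested were read in 1 group only. The null group has 3 libraries and the wild-type group 4, so 0 reads in every library is easier to reach in the null group. With 0 reads in every null library stood 54 tested genes, the highest of them Pcdhgc3, a protocadherin, with a wild-type mean of 67.28 normalised counts that came from 177.2, 1.02, 57.5 and 33.3. With 0 reads in every wild-type library stood 30 genes, the highest 9430020K01Rik with a null mean of 48.71. All of these were genes of low level, and 0 of them were called by limma. Pcdhgc3 and 9430020K01Rik passed in DESeq2 on the 7 libraries alone (adjusted p of 0.00849 and 0.0298), an alternative chosen after seeing the data.

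Eosinophil markers had a lower mean in null libraries in 7 of 9 genes, 3 of them at an unadjusted p under 0.05. The other 2 had a higher mean, 1 of them at an unadjusted p under 0.05. Groups did not overlap in 1 gene of the list, which was higher in null libraries. None was called, and the median log2 difference was -0.45, and -0.73 without wild-type replicate 2. Prg2, the major basic protein of eosinophil granules, stood at 16341, 6826, 5107 and 5753 in wild-type and at 2509, 8959 and 1246 in null libraries, where replicate 2 lay within the wild-type range. Mast cell and basophil markers had a higher mean in 8 of 9 genes, with a median of 0.56 and 0 called. Among heat shock genes, Hspa1a stood at 78.7, 490.6, 440.9 and 550 in wild-type and at 2104, 1647 and 983.4 in null libraries, with no overlap between groups (log2 difference 2.27, adjusted p = 0.67 by limma), and the median of the 22 heat shock and unfolded protein genes was 0.14. These genes were named after their values were seen.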
